A study of Mus musculus with 6 samples.

Results

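The genes described here are 37 genes of glycolysis and of the response to low oxygen, followed in a line of mouse pre-osteoblasts, MC3T3-E1, that had grown on scaffold for 3 days. For De-HA (n = 3) the scaffold was dealloyed first and then given a bioactive coating. For FeMnSi (n = 3) the cells grew on the original scaffold, which lacked both treatments. Total RNA of each sample was labelled with Cy3 and hybridised to 1 single-colour Agilent mouse array. The members were taken from a list of gene symbols, and their probes were found through the RefSeq transcript that the array assigns to each probe. All 37 genes had a probe, with 61 probes in all among the 39429 non-control probes of the array and 20659 genes with a probe. Of the 61 probes, 59 could be tested, which covers 36 of the 37 genes.

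Glycolysis splits glucose into pyruvate in the cytosol, and lactate dehydrogenase turns pyruvate into lactate. When oxygen is scarce, prolyl hydroxylases of the EGLN family no longer mark the HIF-alpha transcription factors for destruction. HIF then binds short elements in promoters and raises the genes of glucose uptake, glycolytic enzymes, lactate export and mitochondrial removal, among others. Osteoblasts are known for taking up much glucose and for releasing most of it as lactate, even with oxygen present, and HIF is known to couple bone formation to the ingrowth of vessels.

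The arrays differed somewhat in the share of probes detected. Between 63.5% and 74.4% of probes were well above background in De-HA and between 69.2% and 73.2% in FeMnSi, without saturation. Whether the replicates came from separate cultures is not stated in the labels, so the p-values cover only the spread between these samples, and that spread may be technical. By the scan times in the file headers, all De-HA arrays and FeMnSi 1 were read in 1 scan and the other FeMnSi arrays in another, which gives no comparison by itself. Values called within scan 1 therefore set the mean of the De-HA arrays against the single array FeMnSi 1. On the log2 scale FeMnSi 1 correlated at 0.993 with De-HA 2, De-HA 3 and FeMnSi 3. With De-HA 1 it correlated at 0.991 and with FeMnSi 2 at 0.989. It thus lay as near to arrays of the other group as to those of its own, and the part of the scan in this was not tested. Of 15 osteoblast probes, 14 or 15 were well above background on each array. Their summed signal was 231100 to 264300 in De-HA and 191800 to 218000 in FeMnSi, with 6 probes called higher and 1, that of Spp1, called lower. Of all tested probes 4.34% were called higher and 2.57% lower (adjusted p under 0.05 in limma), shares that serve for the other markers below too. Summed adipocyte signal was 135.4 to 148.1 in De-HA and 200.3 to 237.7 in FeMnSi, and Fabp4 alone was called (27.7 units in De-HA, 109 in FeMnSi, log2 fold change -1.99), while Cfd, Plin1 and Pparg gave 0.38, 0.29 and 0.00086. Summed muscle signal was 188.2 to 205 in De-HA and 103.5 to 134.6 in FeMnSi, and summed endothelial signal 561.2 to 631.3 in De-HA and 449.1 to 456.9 in FeMnSi. Summed macrophage signal was 2965 to 3234 in De-HA and 2256 to 3085 in FeMnSi, and summed chondrocyte signal 15810 to 17130 in De-HA and 10080 to 16200 in FeMnSi. The chondrocyte sum of FeMnSi 3, 10080, leaves out Acan, which was marked as an outlier there. Acan had 6045 units on FeMnSi 1 and 832 on FeMnSi 2. Among the markers of these other cell types, Fabp4, Pparg, Acan, Col2a1, Col9a1, Sox9, Kdr, Pecam1, Adgre1, Cd14, Csf1r, Itgam, Lyz2, Ptprc, Myod1 and Tnnt3 had a probe well above background on all 6 arrays, and Col2a1, Kdr, Adgre1 and Myod1 had 1 called higher. Adipoq, Lep, Matn1, Cdh5, Emcn, Tek, Mrc1, Ckm, Myh1 and Myog stayed below that level on all 6 arrays, and Cfd, Plin1, Comp, Cldn5, Vwf and Actn2 passed it on some. The part of these markers in the results below was not tested.

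Across the whole set, few member probes were called in the fit as reported. Of the 59 tested member probes, 1 was higher and 1 was lower in De-HA at an adjusted p under 0.05 (limma with Benjamini-Hochberg adjustment over the 28175 probes tested), against 4.34% of all probes higher and 2.57% lower (6.91% in all). At an unadjusted p under 0.05, 9 member probes were higher and 8 lower, against 22.8% and 9.01% of all probes. With the scan as a block no member probe passed, against 0.33% of all probes higher and 0.231% lower. After quantile normalization none was higher and 6 were lower, against 2.79% and 3.49%. The probe that rose belongs to Bnip3, and the probe that fell belongs to P4ha1. Each shares its gene with other probes that did not pass. In bulk RNA, fewer cells of a kind and less RNA per cell cannot be told apart. The median log2 fold change of the member probes was -0.080, against 0.12 over all probes. Quantile normalization forces the arrays to 1 common distribution, and with it the medians were -0.18 for the members and 0.013 for all probes. Over all their probes the members thus lay below the bulk of the array by a similar amount under both scalings, while the zero point moved by about 0.1. With only the brightest probe of each gene the gap was smaller, as given below. Of the 59 member probes, 35 (59.3%) had a fold change below 0, against 35.2% of all probes, and 42 (71.2%) after quantile normalization, against 48.2%. Taking genes, 16 of the 36 had every tested probe below 0, 13 had every probe above 0, and 7 had probes on both sides.

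**Figure D1:**
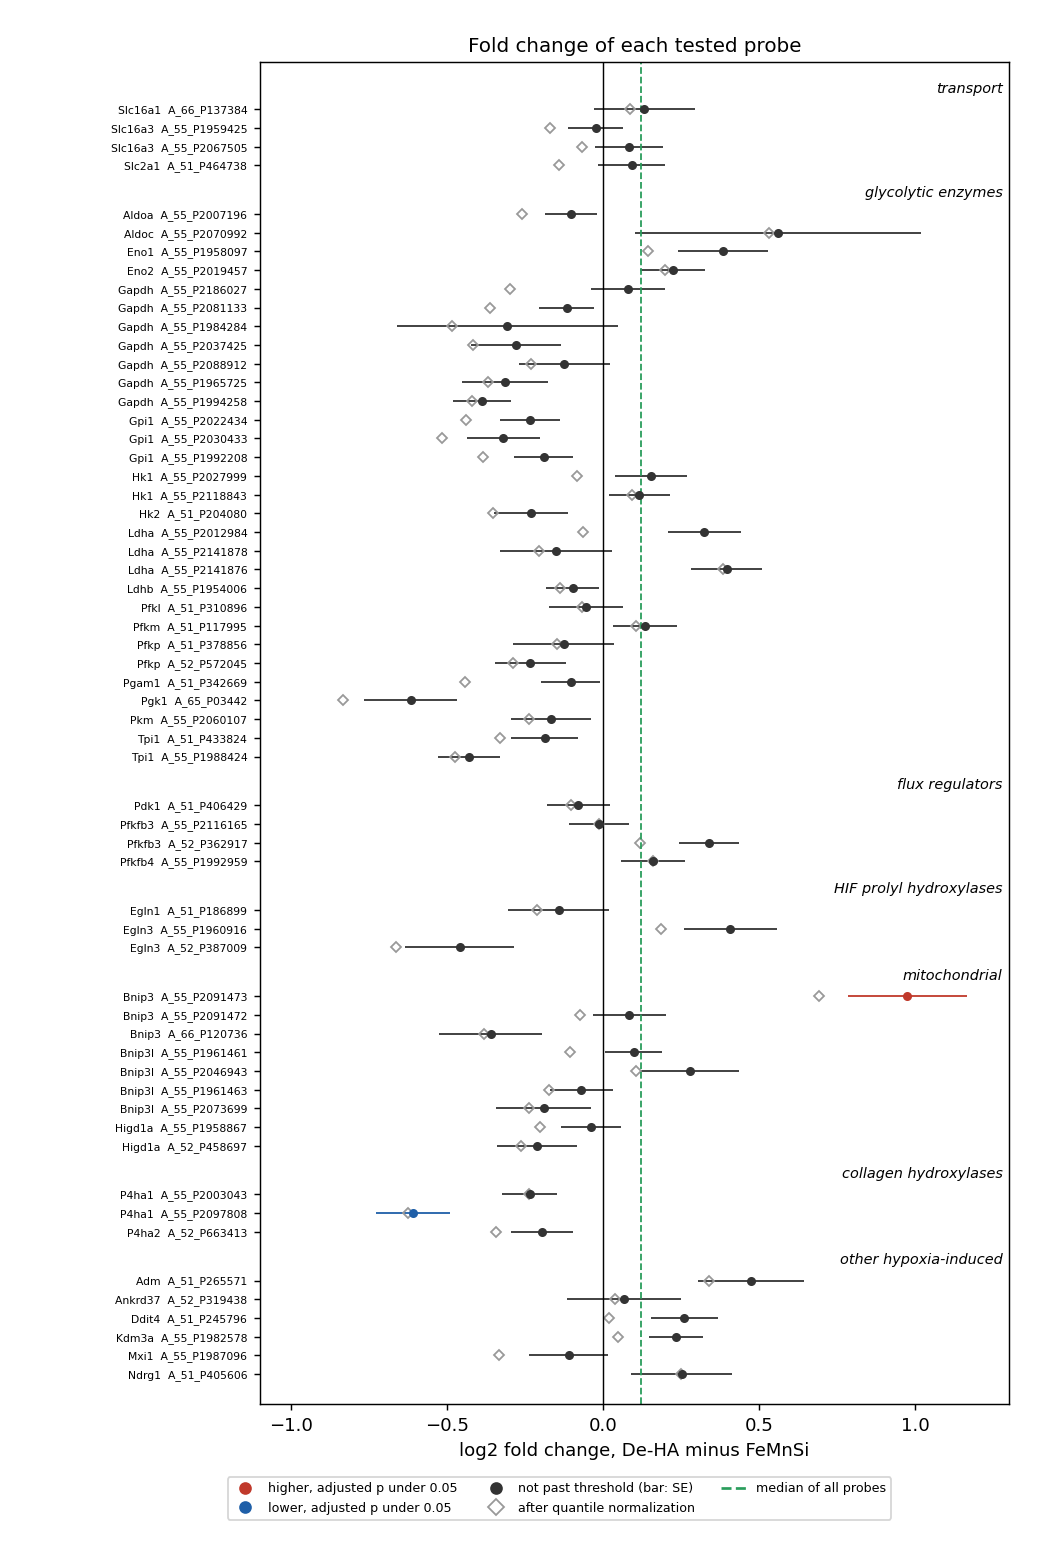
Log2 fold change (De-HA minus FeMnSi, horizontal axis) of the 59 tested member probes, grouped by role; circles give the estimate with its SE (n = 3 arrays per group), open diamonds the estimate after quantile normalization, and the dashed line the median of all probes at 0.12. The Bnip3 probe at 0.98 and the P4ha1 probe at -0.61 are the ones past the threshold, and most glycolytic enzyme probes lie left of the dashed line.

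Glucose and lactate transporters showed no called change. Slc2a1, which encodes the main glucose transporter GLUT1 of most tissues, gave a log2 fold change of 0.091 ± 0.11 SE (adjusted p = 0.570 in limma). Slc2a3, encoding the high-affinity transporter GLUT3, was not well above background on any of the 6 arrays and was not tested. Slc16a1, encoding the monocarboxylate transporter MCT1, gave 0.13 ± 0.16 SE. Slc16a3, encoding the lactate exporter MCT4, had 2 dim probes of opposite sign. Probe A_55_P1959425 had scaled intensities of 41.2, 39.7 and 37.7 in De-HA, against 39.8, 41.2 and 39.6 in FeMnSi. Probe A_55_P2067505 had 41.9, 42.4 and 38.4 in De-HA, against 43.0, 36.1 and 36.9 in FeMnSi. A scaled intensity is the spot's linear signal after the arrays were brought to a common 75th percentile. For both Slc16a3 probes the groups overlapped, with log2 fold changes of -0.025 and 0.083.

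The 17 glycolytic enzyme genes had 30 probes, all of which were tested, and none passed the threshold in limma, while 3 were higher and 5 lower at an unadjusted p under 0.05, against 22.8% and 9.01% of all probes. Of these probes 21 had a fold change below 0 and 9 above 0, with a median of -0.13 (-0.27 after quantile normalization, -0.23 within scan 1). Over all probes the median was 0.12 (0.013 after quantile normalization, 0.071 within scan 1). In 12 of the 30 every De-HA array lay below every FeMnSi array, against 11.8% of all probes, and in 5 every De-HA array lay above, against 25.6%. By gene, 10 of the 17 had every probe below 0, 5 had every probe above 0, and Gapdh and Ldha had both. The member probes are bright, with 19 of the 30 enzyme probes among the brightest 7044 tested probes. There the enzyme probes had a median of -0.17, against 0.14 for all 7044, and after quantile normalization -0.35, against -0.0064.

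No probe of the first steps, from hexokinase to phosphofructokinase, passed the test as reported. Hk1, the hexokinase of most tissues, gave 0.15 and 0.12 by its 2 probes, and Hk2, the hexokinase that hypoxia and insulin induce, gave -0.23 ± 0.12 SE (adjusted p = 0.212 in limma). Gpi1, the isomerase that makes fructose 6-phosphate, had 3 bright probes that moved alike. Probe A_55_P2022434 had 10460, 11234 and 10914 scaled units in De-HA, against 13811, 12249 and 12326 in FeMnSi. Probe A_55_P2030433 had 10638, 10105 and 10206 in De-HA, against 14572, 12981 and 11295 in FeMnSi. For both Gpi1 probes, and for A_55_P1992208, the De-HA arrays all lay below the FeMnSi arrays. The log2 fold changes were -0.23, -0.32 and -0.19 with adjusted p-values of 0.150, 0.121 and 0.205, and they were -0.44, -0.52 and -0.39 after quantile normalization, where the first 2 probes passed (adjusted p = 0.0279 and 0.0380). Of the phosphofructokinase genes, which encode the committed step, Pfkl gave -0.055, Pfkm 0.13 and Pfkp -0.13 and -0.23.

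From aldolase onward the fold changes ran both ways. Aldoa, the aldolase of muscle and most cells, had 7656, 7625 and 7719 scaled units in De-HA, against 8255, 8271 and 8168 in FeMnSi. Its groups did not overlap, yet the difference was small (log2 fold change -0.10 ± 0.083 SE, adjusted p = 0.411 in limma). Tpi1, triose phosphate isomerase, had 1196, 1108 and 1051 units in De-HA by probe A_55_P1988424, against 1570, 1548 and 1401 in FeMnSi. All De-HA arrays were the lower ones, by 0.43 ± 0.10 SE on the log2 scale, and the adjusted p was 0.0516, just outside the threshold, against 0.0382 after quantile normalization. The brighter Tpi1 probe gave -0.19.

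Pgk1, phosphoglycerate kinase, makes the first ATP of the pathway and is a widely used HIF target. Its 1 probe had 11278, 9751 and 8896 units in De-HA, against 13576, 18139 and 14348 in FeMnSi. The De-HA mean was 9975 ± 1207 and the FeMnSi mean 15354 ± 2442 (SD, n = 3 each), and the groups did not overlap. The log2 fold change of -0.62 ± 0.15 SE was the lowest among the tested member probes, with an adjusted p of 0.0546 in limma over all probes. With quantile normalization the value was -0.84 (adjusted p = 0.0439), and within scan 1 it was -0.45. Pgk1 passed also in the fit with 1 probe per gene and with median scaling, and it did not pass with the scan as a block.

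Gapdh, the oxidoreductase often used as a reference gene, had 7 probes. The brightest, A_55_P2186027, had 52767, 60176 and 56931 units in De-HA, against 60941, 49088 and 51151 in FeMnSi, and the groups overlapped (0.080 ± 0.12 SE). The dimmest, A_55_P1994258, had 952, 946 and 885 in De-HA, against 1287, 1192 and 1168 in FeMnSi, with no overlap (-0.39 ± 0.093 SE, adjusted p = 0.0534 in limma). Probe A_55_P1984284 had 7514, 7174 and 6628 in De-HA, against 16198, 5765 and 7249 in FeMnSi, so that FeMnSi 1 alone stood high. The other 4 probes of Gapdh lay between -0.12 and -0.31. The zero point matters for this gene: the brightest probe gave -0.30 after quantile normalization and passed as lower after normexp background correction with quantile normalization (-0.28). The mouse genome holds many processed copies of Gapdh and of other glycolytic genes, and which transcripts these probes bind was not tested.

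The remaining lower-pathway enzymes did not pass. Pgam1, phosphoglycerate mutase, gave -0.10, and Pkm, pyruvate kinase, gave -0.17 with De-HA arrays below the FeMnSi arrays. Eno1 and Eno2, the enolases, gave 0.38 and 0.22, and all De-HA arrays were above all FeMnSi arrays for both. Within scan 1 their values were 0.093 and 0.088. Aldoc, the aldolase known from brain, had 188, 277 and 186 units in De-HA, against 315, 104 and 92.5 in FeMnSi. FeMnSi 1 was the highest array and the other FeMnSi arrays were the lowest. The log2 fold change was 0.56 ± 0.46 SE over all arrays, 1.12 without FeMnSi 1 (adjusted p = 0.0192 in limma), and -0.56 within scan 1, where FeMnSi 1 is the array compared.

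Lactate dehydrogenase also depended on the probe. Ldha encodes the subunit that favours lactate. Its brightest probe, A_55_P2012984, had 63973, 63902 and 65213 units in De-HA, against 59648, 48018 and 47390 in FeMnSi. Probe A_55_P2141876 had 511, 489 and 415 in De-HA, against 335, 379 and 360 in FeMnSi, and the groups were apart for both. The third probe, A_55_P2141878, had 2184, 1751 and 1745 in De-HA, against 2076, 2610 and 1690 in FeMnSi, with overlap. The log2 fold changes were 0.32, 0.40 and -0.15, with adjusted p-values of 0.118, 0.0796 and 0.574 in limma, and the brightest probe gave -0.064 after quantile normalization. Ldhb, the subunit that favours pyruvate, gave -0.098.

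**Figure D2:**
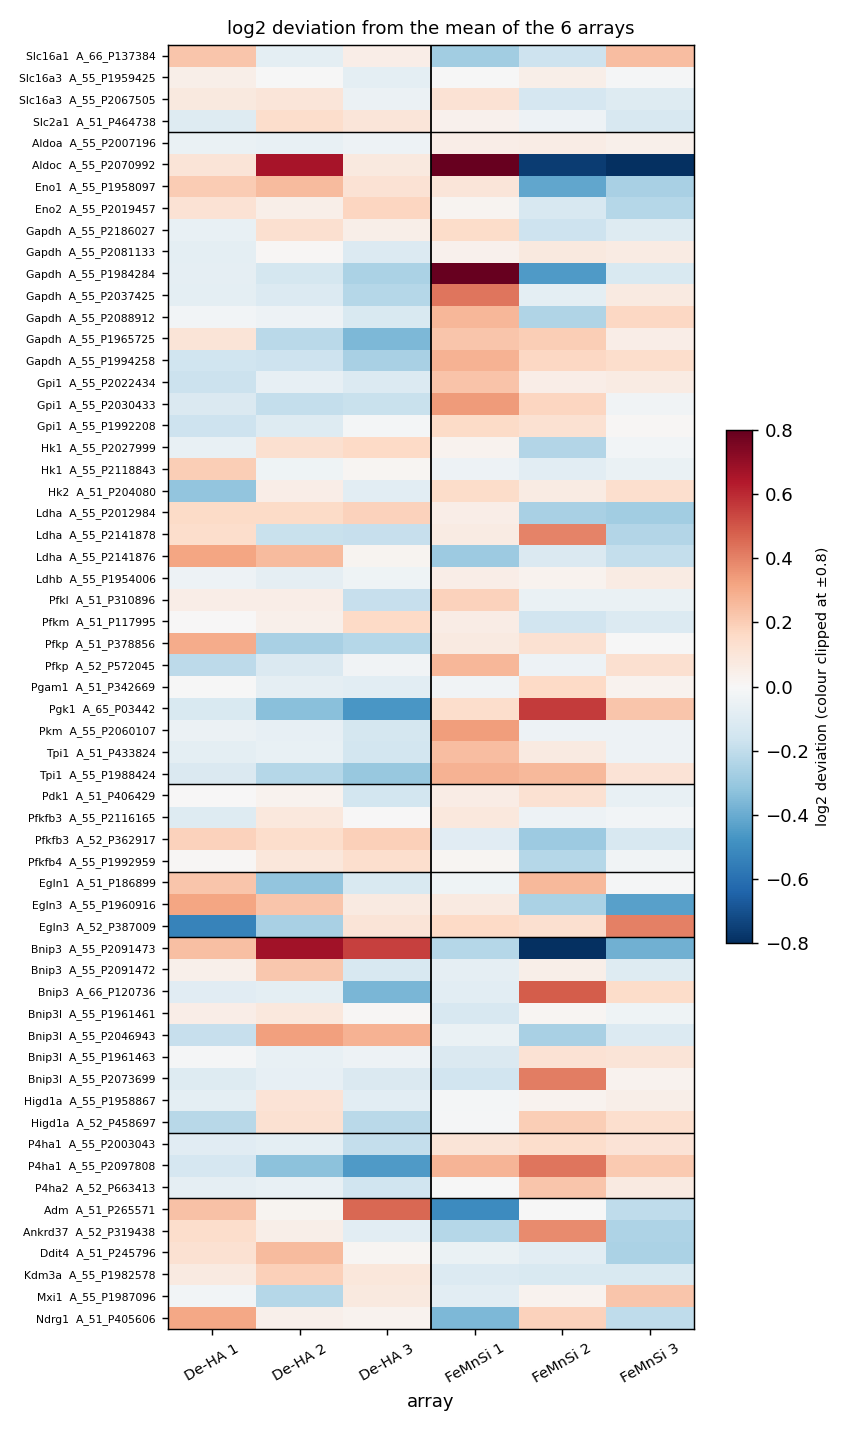
Log2 scaled intensity of each tested member probe on each array (columns, De-HA left of FeMnSi), as the deviation from the mean of the 6 arrays; red is above and blue below that mean, with the colour clipped at 0.8. Gpi1, Pgk1 and Tpi1 are blue in De-HA and mostly red in FeMnSi, the top Bnip3 probe shows the opposite, and Aldoc and 1 Gapdh probe are deep red on FeMnSi 1.

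The genes that set the flux did not pass. Pfkfb3 and Pfkfb4 encode the enzymes that make fructose 2,6-bisphosphate, the activator of phosphofructokinase, and Pdk1 encodes a kinase that shuts pyruvate out of the mitochondria. Pdk1 gave -0.080 ± 0.10 SE. The brighter Pfkfb3 probe, A_55_P2116165, had 491, 558 and 528 units in De-HA, against 558, 514 and 519 in FeMnSi (-0.014). The dim one, A_52_P362917, had 21.5, 20.9 and 21.6 in De-HA, against 17.8, 15.5 and 17.4 in FeMnSi (0.34 ± 0.096 SE, adjusted p = 0.0755 in limma), near the floor of detection. Pfkfb4 gave 0.16 by 1 probe, and its other probe was not well above background on any array.

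No probe of the oxygen sensors passed. Egln1 encodes PHD2, the main HIF prolyl hydroxylase, and gave -0.14 ± 0.16 SE. Egln3 encodes PHD3, itself a HIF target, and its 2 probes, both dim, went opposite ways. Probe A_55_P1960916 had 29.2, 27.4 and 24.7 units in De-HA, against 24.7, 19.7 and 17.4 in FeMnSi. Probe A_52_P387009 had 14.9, 18.0 and 23.2 in De-HA, against 24.0, 23.6 and 28.5 in FeMnSi. The log2 fold changes were 0.41 and -0.46 (adjusted p = 0.122 and 0.130 in limma), so these probes give no direction for Egln3.

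Bnip3, a mitochondrial outer membrane protein that HIF induces and that targets mitochondria for autophagy, gave the one called rise, by its brightest probe alone. Probe A_55_P2091473 had 33545, 45247 and 41523 units in De-HA, against 24252, 15716 and 21759 in FeMnSi. All De-HA arrays lay above all FeMnSi arrays, with means of 40105 ± 5978 and 20575 ± 4389 in that order (SD, n = 3 each). The log2 fold change was 0.98 ± 0.19 SE, or 1.97-fold (adjusted p = 0.0354 in limma, 0.71 within scan 1). After quantile normalization it was 0.69 with an adjusted p of 0.0525, and with the scan as a block the adjusted p was 0.218.

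The other Bnip3 probes did not follow. Probe A_55_P2091472 had 8642, 9762 and 7699 units in De-HA, against 8021, 8691 and 7834 in FeMnSi (0.083 ± 0.12 SE). Probe A_66_P120736 had 152, 153 and 126 in De-HA, against 153, 227 and 179 in FeMnSi (-0.36 ± 0.17 SE). The groups overlapped for both. The fold change of the brightest probe exceeded those of the other 2 by 0.89 and 1.34 on the log2 scale. All 3 probes are assigned to the same RefSeq transcript, and where on it they lie was not analysed here.

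Bnip3l, the close relative known as NIX, had 4 probes, none of which passed. Probe A_55_P1961461 had 11353, 11566 and 10992 units in De-HA, against 10016, 11039 and 10666 in FeMnSi (0.097). Probe A_55_P2046943 had 7996, 11407 and 11005 in De-HA, against 8781, 7612 and 8425 in FeMnSi (0.28). The dimmer probes gave -0.070 (3429, 3308 and 3355 in De-HA, against 3187, 3738 and 3698 in FeMnSi) and -0.19 (1234, 1264 and 1219 in De-HA, against 1190, 1760 and 1350 in FeMnSi). The groups overlapped for all 4 Bnip3l probes. Higd1a, a hypoxia-induced protein of the respiratory chain, gave -0.039 and -0.21.

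**Figure D3:**
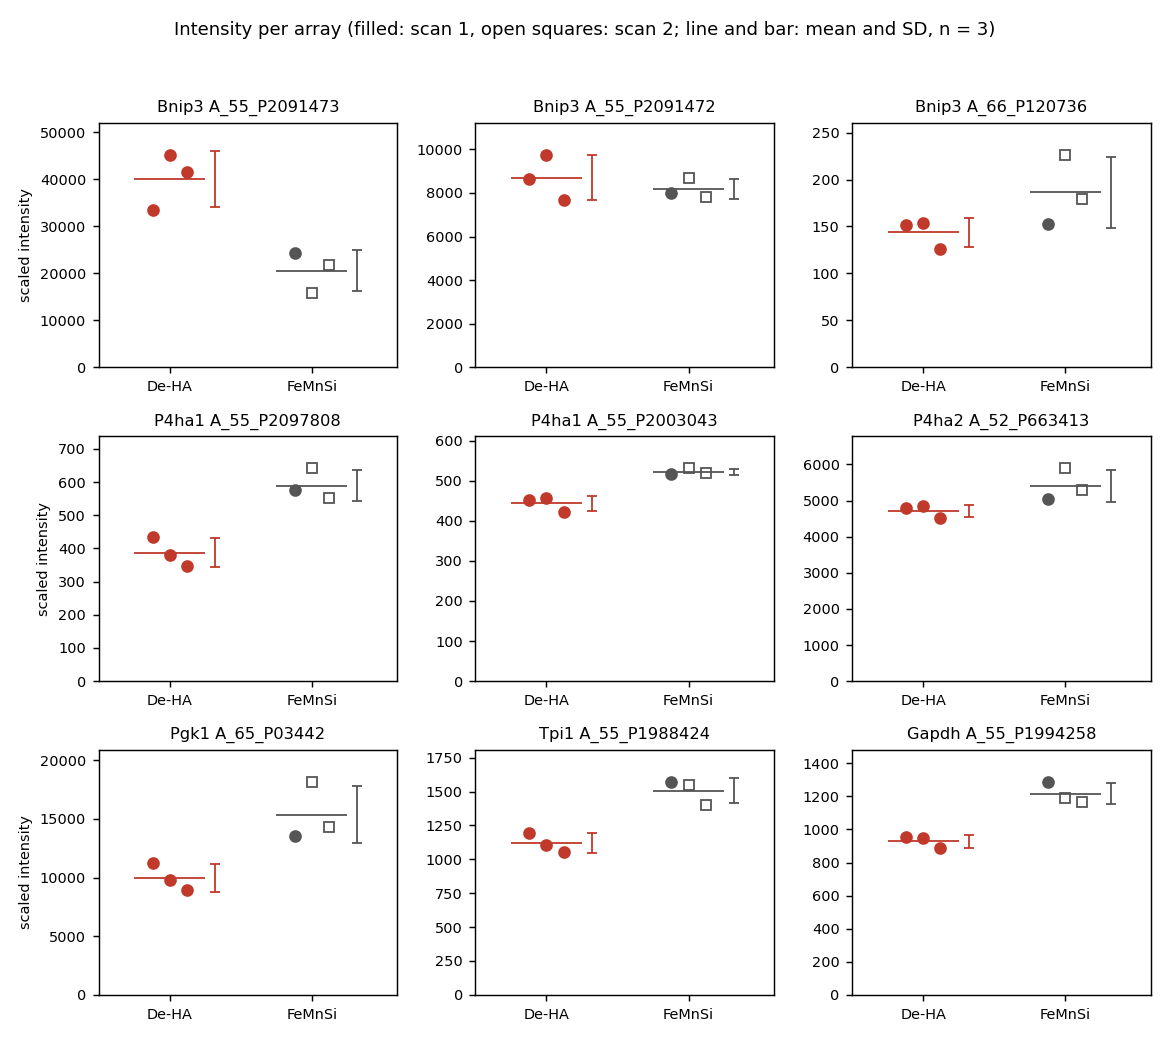
Scaled intensity (vertical axis, linear, from 0) of 9 member probes on each array, De-HA left and FeMnSi right; filled points are arrays of scan 1, open squares arrays of scan 2, and lines and bars give the mean and SD (n = 3). The 3 Bnip3 probes differ, with the brightest at 33545 to 45247 in De-HA and 15716 to 24252 in FeMnSi, while both P4ha1 probes and those of Pgk1, Tpi1 and Gapdh shown are lower in every De-HA array.

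The collagen prolyl hydroxylases, which HIF induces and which stabilise the collagen triple helix, had 3 tested probes, 2 of them of P4ha1. In all 3 every De-HA array lay below every FeMnSi array, as in 11.8% of all probes. Of all probes, 35.2% had a fold change below 0. P4ha1 encodes the main catalytic subunit. Its probe A_55_P2097808 had 434, 379 and 348 units in De-HA, against 575, 642 and 551 in FeMnSi. The means were 387 ± 43.5 in De-HA and 589 ± 47.1 in FeMnSi (SD, n = 3 each), without overlap. This probe fell, by 1.53-fold or -0.61 ± 0.12 SE on the log2 scale (limma adjusted p = 0.0354, -0.58 within scan 1), and passed after quantile normalization as well (-0.62, adjusted p = 0.0279). With the scan as a block its adjusted p was 0.178. Probe A_55_P2003043 of the same gene had 453, 457 and 423 in De-HA, against 518, 531 and 519 in FeMnSi, again without overlap, and gave -0.24 ± 0.088 SE (adjusted p = 0.125). P4ha2, a second catalytic subunit, had 4797, 4837 and 4521 in De-HA, against 5037, 5893 and 5305 in FeMnSi. It gave -0.20 ± 0.10 SE (adjusted p = 0.214).

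Both calls depend on the arrays used. Leaving out one De-HA array gave the Bnip3 probe an adjusted p of 0.0671, 0.109 or 0.125 in limma, and leaving out FeMnSi 1, 2 or 3 gave 0.0185, 0.0741 or 0.103. For the P4ha1 probe the De-HA arrays gave 0.0619, 0.111 or 0.131, and the FeMnSi arrays 0.0276, 0.0989 or 0.1004. The share of all probes called ran from 0.486% to 25.5% over these fits, with the highest share without FeMnSi 1. In that fit 6 member probes were higher and 4 were lower, while of all 28186 probes 5236 were higher and 1938 lower. The higher member probes were Eno1 (0.53), Aldoc, the brightest Ldha probe (0.43), a Pfkfb3 probe and an Egln3 probe beside Bnip3. The lower ones were Pgk1 (-0.70), Tpi1 (-0.40) and Gapdh (-0.35) beside P4ha1.

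Of the 6 remaining hypoxia-induced members none passed. At an unadjusted p under 0.05 in limma 3 were higher and 0 lower, against 22.8% and 9.01% of all probes. Of these 6, 5 gave values above 0, as did 18244 of all 28175 probes. The median of the 6 was 0.24, against 0.12 for all probes. Within scan 1 it was 0.25, against 0.071, and after quantile normalization 0.043, against 0.013. Adm, the vasodilator peptide adrenomedullin, was dim, though well above background on every array, and gave 0.47 ± 0.17 SE. Ddit4, an inhibitor of mTORC1 also called REDD1, gave 0.26, and Kdm3a, a histone demethylase, gave 0.23 with 10882, 11790 and 11017 units in De-HA, against 9577, 9523 and 9524 in FeMnSi. For Adm, Ddit4 and Kdm3a all De-HA arrays lay above all FeMnSi arrays, as in 25.6% of all probes. Ndrg1, a stress-response gene, gave 0.25, Ankrd37, an ankyrin-repeat protein gene, gave 0.067, and Mxi1, a MYC antagonist, gave -0.11 at the floor of detection.

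Probes of 1 gene did not always share a sign. The disagreement of the Bnip3 probes was known when the genes were chosen, so the counts are a description. Of the 13 members with several tested probes, 7 had probes of opposite sign (53.8%), against 37% of the 3936 such genes on the array. The brightest probe had a higher fold change than the dimmest in 9 of the 13 members (69.2%), against 55.3% of all such genes, with a median difference of 0.17, against 0.036. A call for a gene therefore depends on the probe taken. With the brightest probe of each gene, the median over the 36 tested members was 0.027, against 0.103 for all probes of that fit. Over all member probes it was -0.080, against 0.12 for all probes tested.

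Promoter sequences were examined because most of these genes are taken to be HIF targets. HIF binds a core of ACGTG or GCGTG, and both were searched on both strands in RefSeq promoters of build GRCm38.p6, from 250 bases before to 50 after each annotated gene start. The table held 51 promoters for 34 of the 37 members, of which 40 (78.4%) had at least 1 match, against 43.8% of all 32851 promoters. For ACGTG alone the shares were 52.9% and 19.6%. The member promoters were richer in G and C, at 62.1% against 53.8%, and the part of this in the shares was not tested. For the glycolytic enzymes 21 of 28 promoters had a match. The promoters of the members called in limma are shown with that of Pgk1, and capitals mark the matches. Where ACGTG lies on both strands in overlap, as CACGTG, it counts as 2 matches.
Bnip3, chr7:138909457-138909756, minus strand: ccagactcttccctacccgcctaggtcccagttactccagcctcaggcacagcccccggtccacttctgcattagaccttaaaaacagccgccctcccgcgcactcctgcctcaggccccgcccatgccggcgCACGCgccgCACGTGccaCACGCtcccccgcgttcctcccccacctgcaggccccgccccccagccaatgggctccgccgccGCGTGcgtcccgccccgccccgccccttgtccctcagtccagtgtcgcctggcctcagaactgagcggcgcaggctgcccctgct
P4ha1, chr10:59323046-59323345, plus strand: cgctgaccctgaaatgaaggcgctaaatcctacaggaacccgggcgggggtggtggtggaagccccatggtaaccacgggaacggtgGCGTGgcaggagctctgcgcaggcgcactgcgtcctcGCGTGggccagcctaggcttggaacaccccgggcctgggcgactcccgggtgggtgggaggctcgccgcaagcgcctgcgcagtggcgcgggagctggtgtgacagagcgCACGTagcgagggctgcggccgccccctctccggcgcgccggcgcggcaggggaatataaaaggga
Pgk1, chrX:106186850-106187149, plus strand: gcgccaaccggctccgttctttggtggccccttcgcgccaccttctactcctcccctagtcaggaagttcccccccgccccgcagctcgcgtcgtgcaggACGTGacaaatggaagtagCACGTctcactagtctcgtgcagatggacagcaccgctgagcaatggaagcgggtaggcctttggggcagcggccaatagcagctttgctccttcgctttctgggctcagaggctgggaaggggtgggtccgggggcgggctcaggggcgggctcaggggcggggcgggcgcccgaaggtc
The Bnip3 promoter has 5 matches, between 117 and 35 bases before the start, P4ha1 has 3 and Pgk1 has 2. All 3 promoters hold ACGTG, while the Bnip3 and P4ha1 probes were called in opposite directions and the Pgk1 probe lay with that of P4ha1.

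Further genes of the pathway were read in 4 lists. The 26 tested probes of other glycolysis genes, such as minor isoforms and sugar interconversion, had a median log2 fold change of -0.031. At an adjusted p under 0.05 in limma 1 was higher and none lower, and at an unadjusted p under 0.05 there were 3 higher and 1 lower. For this and the next 3 lists, the shares of all probes are 4.34% higher and 2.57% lower at the adjusted threshold, and 22.8% and 9.01% at the unadjusted one. Among 28 probes of pyruvate entry and the pentose phosphate path, 3 were higher and none lower at the same adjusted threshold, with 7 higher and 1 lower at an unadjusted p under 0.05 and a median of 0.073. They were 2 of the 3 tested probes of Pdp1, the phosphatase that reactivates pyruvate dehydrogenase and so opposes the PDK kinases (0.65 and 0.61, adjusted p = 0.0217 and 0.0354), and that of Pdpr, which encodes its regulatory subunit (0.58, adjusted p = 0.0484). The brightest Pdp1 probe, with the 0.61, had 2368, 2779 and 2734 units in De-HA, against 1534, 1727 and 1897 in FeMnSi, with no overlap.

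The machinery of HIF itself had 30 tested probes, of which 2 were higher and none lower in limma at the same threshold, with 6 higher and 2 lower at an unadjusted p under 0.05 and a median of 0.076. Vhl, the ubiquitin ligase subunit that removes HIF-alpha, rose by 0.51 ± 0.11 SE (adjusted p = 0.0399). Epas1, encoding HIF-2 alpha, rose by 0.78 by its bright probe, whereas a dim probe gave -1.04 and did not pass. Hif1a gave -0.36 ± 0.12 SE (adjusted p = 0.0979), with 1450, 1304 and 1368 units in De-HA, against 1547, 1950 and 1806 in FeMnSi. Neither Vhl nor Epas1 passed after quantile normalization (adjusted p = 0.0650 and 0.0521).

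Further hypoxia targets had 67 tested probes, 2 higher and 6 lower, against 4.34% and 2.57% of all probes, with a median of 0.074. At an unadjusted p under 0.05, 9 were higher and 14 lower. Car9, a carbonic anhydrase that HIF-1 controls tightly, had 106, 132 and 115 units in De-HA, against 417, 585 and 481 in FeMnSi. Its De-HA mean was 118 ± 13.1 and its FeMnSi mean 494 ± 84.9 (SD, n = 3 each). It was 4.18-fold lower (log2 fold change -2.06 ± 0.15 SE, adjusted p = 0.00246 in limma, -1.83 within scan 1), and with a block for scan it alone passed among these 4 lists (adjusted p = 0.0265). Car12, another carbonic anhydrase, fell by 1.27 on the log2 scale, and 2 of the 3 probes of Mif, a cytokine gene, fell by 0.55 and 0.59. Gbe1, the glycogen branching enzyme, gave -0.47 and 1 of 2 probes of Hmox1, heme oxygenase, -0.55, both past the threshold. Ppp1r3c, a glycogen-targeting phosphatase subunit, rose by 0.63 and Cox4i2, the hypoxia form of a respiratory chain subunit, by 0.48. Vegfa did not pass (-0.33 and -0.13 by its 2 probes).

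**Figure D4:**
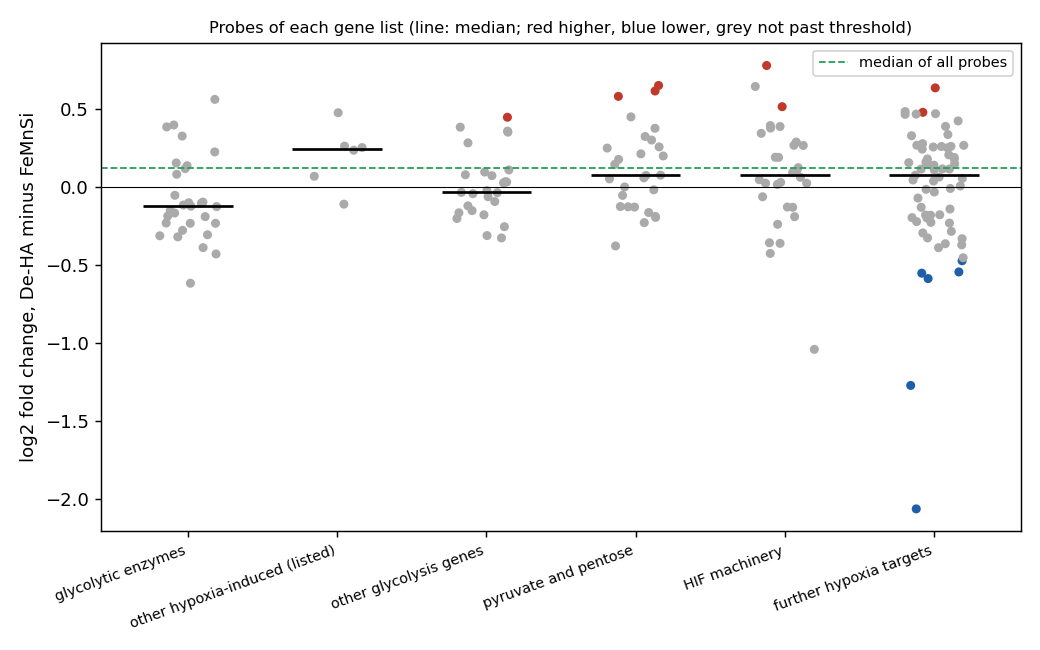
Log2 fold change (De-HA minus FeMnSi, vertical axis) of the tested probes of 6 gene lists; red points are higher and blue points lower at an adjusted p under 0.05, black lines are list medians and the dashed line is the median of all probes at 0.12. The glycolytic enzymes sit lowest by median, at -0.13, and Car9 at -2.06 is the lowest probe.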

How the data were processed

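RNA of 6 samples was measured on 1-colour arrays, 3 per group. The deposited intensity values are linear spot signals with background subtraction and spatial detrending, per the file headers, and no scaling across arrays. The submitters' processing notes name Feature Extraction 11.0.1.1. A deposited matrix of log2 values, whose columns share a median of 5.78, served as an alternative, and its further steps are not given in the sources.

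Signals were put on the log2 scale and shifted by the 75th percentile of each array. Spots marked as outliers were left out and spots of a probe averaged. Kept were 28380 probes that stood well above background on 3 or more of the 6 arrays, less 205 with every spot marked on some array. The groups were tested per probe with lmFit and eBayes of limma 3.58.1 (R 4.3.3), with Benjamini-Hochberg adjustment. The fit was also run on simulated data with planted changes, independent noise and no scan effect, which cannot show how it handles the scans here. The probe is the unit because probes of a gene disagree. Names come from RefSeq (GRCm38.p6); 27234 probes carry 1 symbol and 12195 none.

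The members and lists were chosen with earlier results of these data known. Members are all named, with values per array where a probe passed or probes differ in sign. In each further list up to 4 genes past the threshold with the smallest p are named, beside Hif1a, Epas1, Vhl, Vegfa and Car9. The values per array of Gpi1, Aldoa, Tpi1, Pgk1, Aldoc, P4ha2, Kdm3a, Pdp1, Hif1a and Car9, the names Gbe1, Hmox1 and Cox4i2 and the Pgk1 promoter were chosen after their values were seen. The alternative with normexp used the median spot signal and the median local background. Figures were drawn with matplotlib 3.10.9. Deviations of same-numbered samples from their group means correlated at 0.027, -0.083 and 0.14. Without values for differently numbered samples to set beside them, these cannot tell whether the numbers pair the samples. The fit as reported took the samples as unpaired, and a replicate block was run as an alternative. A result for 1 gene of the further lists is not reported here.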

Additional observations from a re-analysis of the deposited data

How the results depend on the processing

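Limits: the scaling sets the zero point, and with 3 arrays per group and FeMnSi split over scans few calls hold. All probes called numbered 1948 (62.8% of them higher); 44.4% were higher after quantile normalization, 39.4% with median scaling, 47.4% after normexp, 42.5% in the series matrix and 73% without FeMnSi 1. The count of all probes called, of member probes higher, of member probes lower and of probes in the 4 further lists (1948, 1, 1 and 14 as reported) was 298, 0, 0 and 1 without the filter on dim probes, 158, 0, 0 and 1 when scan was a block, 6, 0, 0 and 0 on scan 1 alone and 469, 0, 0 and 2 with a replicate block. Leaving out 1 array gave 137 to 7174 probes, 0 to 6 member probes higher, 0 to 4 lower and 1 to 35 in the further lists, with 0 to 3 glycolytic enzyme probes lower. The series matrix had 9 called probes in the further lists and median scaling 8; an intensity trend called 3294 probes in all. Member probes higher and lower were 0 and 6 after quantile normalization and in the series matrix. They were 1 and 4 with median scaling and with probes above background on all 6 arrays. After normexp they were 2 and 12, and with the trend 2 and 4. Of all probes, 785 were higher and 982 lower after quantile normalization, 745 and 1010 in the series matrix and 621 and 957 with median scaling. Counts were 1808 and 903 with probes above background on all 6 arrays, 1220 and 1352 after normexp, and 2153 and 1141 with the trend. The share of all probes called in either direction was 6.27%, 6.18%, 5.6%, 11.1%, 9.13% and 11.7% in that order. Glycolytic enzyme probes lower (0 as reported) were 5, 5, 3, 3, 11 and 3 in the same order of settings, and 1, that of Pgk1, with the brightest probe per gene. The quantile and matrix calls were Gapdh, Gpi1 (2 probes), Pgk1, Tpi1 and P4ha1. The member median of -0.080 was -0.18 after quantile normalization, -0.17 with median scaling, -0.15 after normexp, -0.19 in the series matrix, -0.10 to -0.036 without 1 array, and turned to 0.027 with the brightest probe per gene. The brightest Gapdh probe turned from 0.080 to -0.28 after normexp. The share of member promoters with a match, 78.4%, was 52.9% for ACGTG alone. The cause of these changes was not tested.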
